A study of Mus musculus with 5 samples.

Results

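The cyclin-dependent kinase (CDK) inhibitors of the Cdkn1 and Cdkn2 families were examined in 6DT1 cells, a highly metastatic mouse mammary carcinoma line, after knockdown of *Arid4b*. The 7 genes were taken by name, as the Cdkn1 genes *Cdkn1a*, *Cdkn1b* and *Cdkn1c* and the Cdkn2 genes *Cdkn2a*, *Cdkn2b*, *Cdkn2c* and *Cdkn2d*, and a gene was used where the array annotation gave it a probe set with 1 symbol. This held for 6 of the 7 genes, among 19938 genes in all. The single probe set of *Cdkn1a* carries a second symbol, so that no value is given for *Cdkn1a* here.

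CDK inhibitors hold back the kinases that drive cells from G1 into S phase. Proteins of the Cip/Kip family, encoded by the Cdkn1 genes, bind complexes of cyclins with CDK2 and other CDKs, while the Ink4 proteins, encoded by the Cdkn2 genes, bind CDK4 and CDK6 and keep them from D-type cyclins. With these kinases restrained, the retinoblastoma protein and its relatives stay bound to E2F factors and genes of DNA replication stay silent. In mammary and other epithelia the inhibitors mark cell cycle exit, senescence and differentiation, and loss of the *Cdkn2a* and *Cdkn2b* locus is frequent in tumors.

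Each of 5 lines was measured on 1 Affymetrix Mouse Gene 1.0 ST array. The *Arid4b* knockdown cohort held 2 lines, H3 and H4, which carry different *Arid4b* shRNAs and had ARID4B densitometry of 0.19 and 0.15 relative to the scrambled control. The control cohort held 3 lines, namely H5, which carries an *Arid4b* shRNA but had a densitometry of 1.02, a line with a scrambled shRNA in the pLKO.1 vector, and untransduced cells at 1.09. The transduced lines were pooled clones kept under 10 µg/ml puromycin, and the untransduced line was the one without selection. A value is thus an average over a culture, in which fewer expressing cells and less RNA per cell cannot be told apart. ARID4B is a subunit of the mSIN3A histone deacetylase complex, and the comparison asks which genes differ in expression with the level of ARID4B.

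Values are RMA log2 expression, where 1 unit is a doubling or halving, and differences are knockdown mean minus control mean. The targeted gene, *Arid4b*, was at 6.88 in H3 and 7.35 in H4, below the lowest control line at 8.24. The H3 array was less spread than the rest, with a median over all probe sets of 6.35 against 6.24 to 6.25 and an SD of 2.25 against 2.29 to 2.30. Of 10 epithelial markers 7 had control means above 5.97, namely the keratins *Krt8* (12.18), *Krt18* (11.67), *Krt19* (8.09) and *Krt7* (6.75), the claudins *Cldn3* (7.30) and *Cldn4* (6.59), and *Cdh1* (6.06), while *Epcam* (5.61), *Cldn7* (5.46) and *Esrp1* (5.14) lay below. That level is the 95th percentile of 1015 olfactory receptor genes, which stand in here for genes that are silent in mammary cells. Probe sets differ in brightness, so this level is a rough guide. All 6 inhibitors were above that level in their mean over the lines, the lowest being *Cdkn2a* at 6.69. A value above it does not show that a gene is expressed. Of the markers of other cell types, 2 of 7 leukocyte genes and 5 of 10 fibroblast and endothelial genes were above it in that mean. The leukocyte genes were *Cd3e* (control mean 6.20) and *Itgam* (5.96). The others were *Col1a1* (7.39), *Col1a2* (7.05), *Pdgfra* (6.93), *Thy1* (6.43) and *Cdh5* (6.07), and some of these exceeded *Krt7* and *Cldn4*. Below the level were *Ptprc*, the common leukocyte antigen, at a control mean of 5.09 and *Pecam1*, the endothelial adhesion molecule, at 5.67. The summed log2 level of the 10 epithelial genes was 73.4 to 76.1 in the knockdown lines against 74.5 to 75.2 in the control lines. The summed level of the leukocyte genes was 37.3 to 38.0 in the knockdown lines against 37.0 to 37.2 in the control lines, and that of the fibroblast and endothelial genes 61.9 to 63.4 against 61.3 to 61.8. Their part in the results was not tested.

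Of the 6 inhibitors, *Cdkn2c* was lower in the knockdown lines, none was higher, and the other 5 missed the study's threshold, which is taken here as limma's p below 0.05 before adjustment. Over all genes 7.61% were lower and 4.34% higher at this threshold, so that 1 of 6 is not a result about the inhibitors as a group. Both knockdown lines lay below all control lines in 1 of the 6 inhibitors and above them in 0, against 13.5% and 13.9% of all genes. At an adjusted p under 0.05 none of the 6 passed, nor did any of the 19938 genes (0.0%) by limma, of which 2383 passed unadjusted. After adjustment 2 genes passed with a plain equal-variance test in place of limma and 4 with the lowest 1 in 3 genes left out. The median log2 difference of the 6 inhibitors was 0.005, beside 0.033 for all genes. Because 2 lines can be set against 3 in 10 ways, an exact permutation test of a single gene cannot go below p = 0.1.

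**Figure D1:**
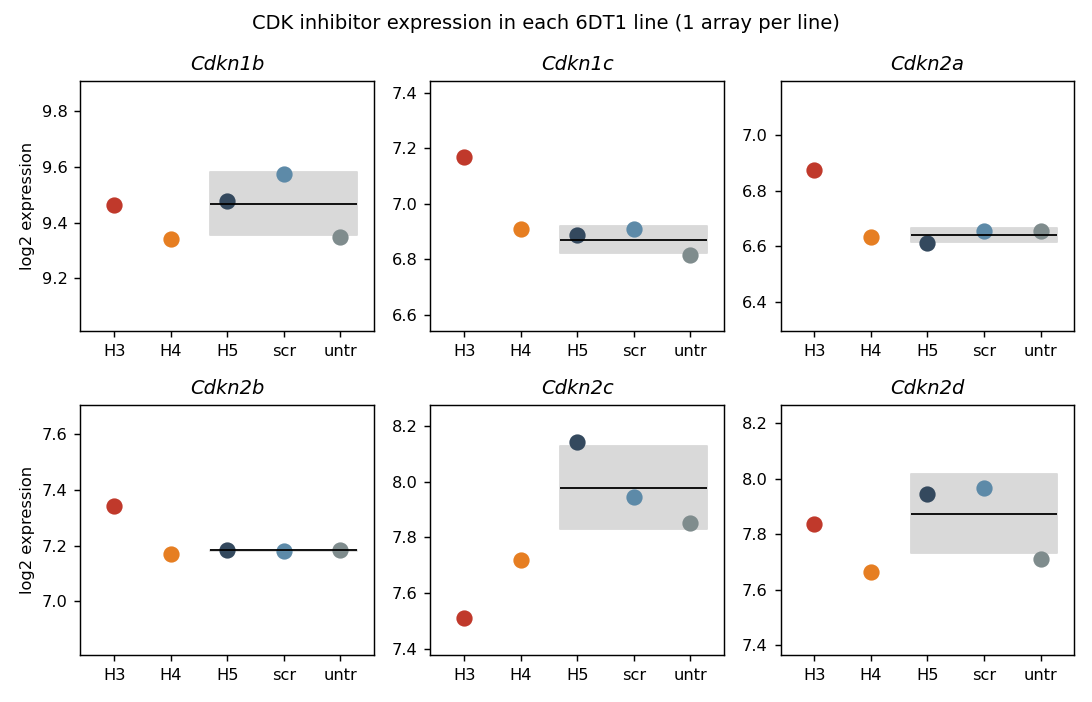
Log2 expression (vertical axis, each panel spanning the same range) of the 6 measured inhibitors in the 5 lines (horizontal axis; scr, scrambled control; untr, untransduced), 1 point per line. The line and grey band are the mean and SD of the 3 control lines. *Cdkn2c* is the one panel in which H3 (7.51) and H4 (7.72) both lie below the controls.

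The Ink4 gene *Cdkn2c* encodes p18Ink4c, an inhibitor of CDK4 and CDK6 that restrains luminal progenitor cells in the mammary gland. It read 7.51 (H3) and 7.72 (H4) in the knockdown lines and 8.14 (H5), 7.94 (scrambled) and 7.85 (untransduced) in the controls. H3 was the lowest line and H5 the highest, and the cohorts did not overlap. The gap between H4 and the lowest control line was nevertheless smaller than the range of 0.29 among the control lines. Against a control mean of 7.98 ± 0.15 (SD, n = 3 lines) the log2 difference was -0.36 (standard error 0.12, 95% interval -0.67 to -0.06), which is a level 0.777 times that of the controls. The unadjusted p was 0.0289 from limma, the adjusted p from limma was 0.361, and the two-sided exact permutation p was 0.1, the smallest this design allows. The call was lost with an equal-variance test that does not pool spread over genes, with array weights in limma, and without H3 (log2 difference -0.26), without H4 (-0.47), without H5 or without the scrambled control, while it held without the untransduced line.

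*Cdkn2c* lies on chromosome 4 of GRCm38.p6, where RefSeq places it at chr4:109660876-109666756 on the minus strand, and both of its curated mRNAs are annotated to its probe set. The RefSeq windows of 250 bases before and 50 bases after its 2 start sites are shown because this was the inhibitor that differed between the cohorts. They were searched on both strands for 4 forms of the E2F binding sequence, TTTCCCGC or TTTGGCGC or TTTCGCGC or TTTGCCGC, and for the GC box GGGCGG bound by SP1. Capitals mark a match, and no 2 kinds of match overlap in these windows.
Cdkn2c upstream start, chr4:109666707-109667006, minus strand: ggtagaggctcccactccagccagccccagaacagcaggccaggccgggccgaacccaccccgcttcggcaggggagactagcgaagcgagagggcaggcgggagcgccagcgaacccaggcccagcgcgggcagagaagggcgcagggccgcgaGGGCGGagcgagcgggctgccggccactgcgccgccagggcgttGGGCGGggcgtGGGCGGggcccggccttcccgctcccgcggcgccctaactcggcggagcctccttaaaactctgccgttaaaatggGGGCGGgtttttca
Cdkn2c downstream start, chr4:109665323-109665622, minus strand: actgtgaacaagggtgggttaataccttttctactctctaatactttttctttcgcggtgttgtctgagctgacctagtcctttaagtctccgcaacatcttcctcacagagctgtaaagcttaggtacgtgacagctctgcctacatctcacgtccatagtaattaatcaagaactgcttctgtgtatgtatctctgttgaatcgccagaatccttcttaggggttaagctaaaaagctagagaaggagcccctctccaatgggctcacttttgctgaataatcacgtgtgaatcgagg
The upstream window, with a GC content of 73.3%, held 4 GC boxes and the downstream one, at 44.0%, held 0. Neither held an E2F word, which says only that these letters are not in these windows. Among all 32851 promoter windows 35.7% held a GC box and 2.26% an E2F word, and these shares are not adjusted for base composition. *Sp1* itself had a log2 difference of -0.24 (standard error 0.05, unadjusted p = 0.00455 and adjusted p = 0.285 from limma). Whether *Sp1* has a part in the level of *Cdkn2c* was not tested.

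The genes beside *Cdkn2c* on the chromosome did not share one pattern. *Faf1*, which encodes a FAS-associated factor, is the nearest measured neighbour on one side and was lower in the knockdown lines. *Faf1* read 8.78 (H3) and 8.89 (H4) after knockdown and 9.20 (H5), 9.08 (scrambled) and 9.35 (untransduced) in the controls, and the cohorts did not overlap. Its log2 difference was -0.37 (standard error 0.10, unadjusted p = 0.0145 from limma). The next gene beyond it, *Dmrta2*, had 0.17, and the nearest on the other side, *9630013D21Rik* and *4930522H14Rik*, had 0.03 and 0.09, none of them past the threshold. Of the 20 measured genes that lie within 2 places of an inhibitor, 2 were lower and 2 were higher at the unadjusted threshold. Among all genes 7.61% were lower and 4.34% higher, and so few calls are not a result about the neighbours. The other lower gene was *Kri1* beside *Cdkn2d* (-0.36), and the higher ones were *Apold1* beside *Cdkn1b* (0.29) and *Mir31* beside *Cdkn2a* (0.21). The rest did not pass. Around *Cdkn1b* these were *Crebl2*, with the largest difference of all the neighbours (0.59), *Gpr19* (-0.24) and *Ddx47* (-0.30). Around *Cdkn2a* and *Cdkn2b* they were *Mtap* (0.10), *Dmrta1* (0.20) and *Zfp352* (0.13), and around *Cdkn2d* they were *Atg4d* (-0.22), *Ap1m2* (0.08) and *Slc44a2* (0.26).

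Over the 5 lines the genes whose pattern came nearest to *Cdkn2c* were *Tmem200b*, *Txlna* and *Lrba*. Likeness was the root mean square difference between profiles centred on their own means, and it was 0.0408, 0.0446 and 0.0463 log2 units, against an SD of 0.24 for *Cdkn2c* over the lines. *Tmem200b* was likewise lowest in H3 (8.93) and highest in H5 (9.62). With 5 lines and 19938 genes this is a description. The other inhibitors varied too little over the lines, with an SD of 0.07 to 0.14, for such a search.

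The other Ink4 genes showed no difference between the cohorts that passed the test. *Cdkn2d*, which encodes p19Ink4d, read 7.84 (H3) and 7.66 (H4) after knockdown and 7.95 (H5), 7.97 (scrambled) and 7.71 (untransduced) in the controls. H4 and the untransduced line were the low ones, H5 and the scrambled control the high ones, and the cohorts overlapped. The log2 difference was -0.12 (95% interval -0.41 to 0.16, unadjusted p = 0.312 from limma). The 2 selected control lines had a mean of 7.96, which was 0.25 above the untransduced line, a larger gap than that between the cohorts; with 1 unselected line it could not be tested.

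*Cdkn2a* and *Cdkn2b* lie next to each other on chromosome 4, and their values had the same shape, with H3 high. This shape was not particular to them. H3 was also the highest line in their neighbours *Mtap*, *Dmrta1* and *Zfp352*, and in *Dmrta2* beside *Cdkn2c* and *Ap1m2* beside *Cdkn2d*. *Cdkn2a* gives rise to both p16Ink4a, an inhibitor of CDK4 and CDK6, and p19Arf, which stabilizes p53, from separate start sites. The *Cdkn2a* probe set read 6.88 (H3) and 6.63 (H4) after knockdown, 6.61 in H5 and 6.66 in both other controls. H3 was the high line, and H4 lay within the range of the controls. The log2 difference was 0.11 (95% interval -0.11 to 0.33, unadjusted p = 0.241 from limma). *Cdkn2b*, which encodes p15Ink4b, an inhibitor induced by TGF-beta, read 7.34 in H3, 7.17 in H4 and 7.18 in each of the 3 control lines. H3 was again the high line, and H4 was just below the controls, whose SD was 0.002. The log2 difference was 0.07 (95% interval -0.10 to 0.25, unadjusted p = 0.304 from limma). *Mtap*, next to *Cdkn2a*, had a control mean of 5.25, below the olfactory receptor level of 5.97. Whether this locus is intact and expressed in 6DT1 cells was not tested. *Cdkn1c*, *Cdkn2a* and *Cdkn2b* had the same deposited value on 2 of the arrays, as 38.4% of all genes had on 2 or more.

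The 2 start sites of *Cdkn2a* are 12427 bases apart on the minus strand, and both of its curated mRNAs are annotated to the 1 probe set used, so that p16Ink4a and p19Arf transcripts could not be separated. Their windows are shown because the probe set sums over them, with matches to the E2F words and the GC box in capitals as above.
Cdkn2a upstream start (Arf), chr4:89294570-89294869, minus strand: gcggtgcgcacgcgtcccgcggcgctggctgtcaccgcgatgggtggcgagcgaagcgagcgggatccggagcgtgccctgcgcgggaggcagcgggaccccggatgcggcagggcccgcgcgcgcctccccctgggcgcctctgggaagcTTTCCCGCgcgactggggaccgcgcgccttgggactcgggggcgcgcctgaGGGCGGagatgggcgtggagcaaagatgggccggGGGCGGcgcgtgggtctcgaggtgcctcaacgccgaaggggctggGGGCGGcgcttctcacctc
Cdkn2a downstream start (Ink4a), chr4:89282143-89282442, minus strand: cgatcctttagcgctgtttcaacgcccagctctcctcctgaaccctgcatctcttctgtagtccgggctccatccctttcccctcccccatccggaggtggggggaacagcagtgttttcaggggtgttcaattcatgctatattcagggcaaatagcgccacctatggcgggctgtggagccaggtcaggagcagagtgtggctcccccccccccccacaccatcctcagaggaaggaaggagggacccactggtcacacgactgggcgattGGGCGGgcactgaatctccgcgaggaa
The upstream window held 1 E2F word and 3 GC boxes, and the downstream one held 1 GC box. The upstream *Cdkn2a* window was the 1 with an E2F word among 9 windows of the 6 inhibitors matched in the promoter table, all but *Cdkn1c*, and 7 of the 9 held a GC box.

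In the Cip/Kip family neither measured gene passed the test. *Cdkn1b* encodes p27Kip1, which blocks CDK2 in resting cells and is mainly controlled through its degradation. Its probe set read 9.46 (H3) and 9.34 (H4) after knockdown and 9.48 (H5), 9.58 (scrambled) and 9.35 (untransduced) in the controls. The highest line was the scrambled control, and H4 and the untransduced line were the low ones, so that the cohorts overlapped. The log2 difference was -0.07 (95% interval -0.29 to 0.16, unadjusted p = 0.485 from limma), and its sign turned to 0.004 after another quantile normalization. A second probe set of *Cdkn1b*, with a lower mean of 6.24, had a log2 difference of -0.05 and ran from 6.16 in H3 to 6.32 in H5.

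*Cdkn1c* encodes p57Kip2, an imprinted inhibitor expressed from the maternal allele. The values were 7.17 (H3) and 6.91 (H4) after knockdown and 6.89 (H5), 6.91 (scrambled) and 6.82 (untransduced) in the controls. H3 stood above the other lines, while H4 had the same value as the scrambled control. The log2 difference was 0.17 (95% interval -0.08 to 0.41, unadjusted p = 0.134 from limma), the widest reach upwards of the 6 inhibitors. Its neighbours in the imprinted cluster, *Slc22a18* (0.20), *Phlda2* (0.16), *Trpm5* (0.15) and *Kcnq1* (0.09), also did not pass, and H3 was the highest line in each of them but *Phlda2*. The H3 differences of *Trpm5*, *Kcnq1* and *Slc22a18* from the control mean were 0.24, 0.23 and 0.29. All genes near their levels, with means near 5.25, 6.25 and 6.75, had H3 medians of 0.12, 0.17 and 0.14. The part of this array shift in the 3 genes was not tested.

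**Figure D2:**
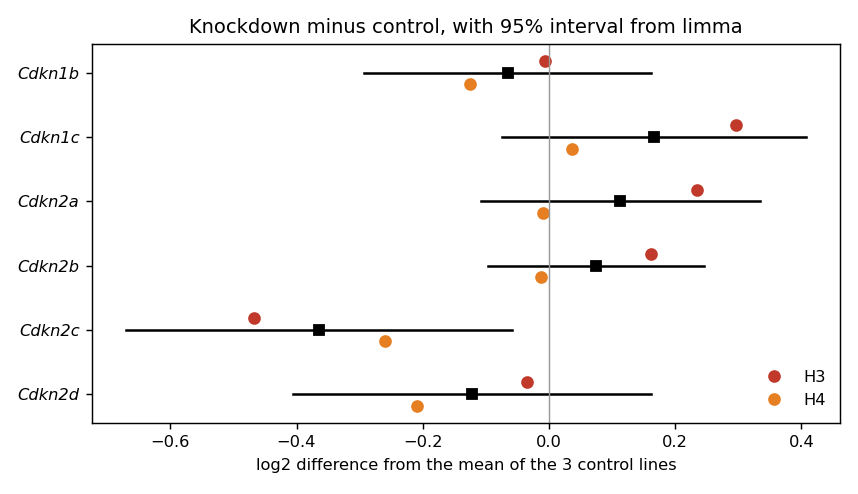
Log2 difference (horizontal axis) of each inhibitor (rows) from the mean of the 3 control lines; squares are knockdown minus control with the 95% interval from limma, and circles are H3 and H4 alone. The interval of *Cdkn2c* (-0.67 to -0.06) is the one that leaves out 0, and the circles lie on opposite sides of 0 for *Cdkn2a* and *Cdkn2b*.

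The hairpin lines differed in which inhibitors stood apart. *Cdkn1c*, *Cdkn2a* and *Cdkn2b* were highest in H3 of the 5 lines, by 0.26, 0.24 and 0.17 over H4. With H4 left out, limma put these 3 inhibitors above the controls at the unadjusted threshold, while 24.6% of all genes were higher in that comparison, which assumes that the lone H3 line varies like the control lines. In H4 alone their differences from the control mean were 0.04, -0.01 and -0.01. The shift of the H3 array depended on the level of a gene. Among 1300 genes with a mean within 0.25 of *Cdkn1c* the median H3 difference was 0.11, against 0.30 for *Cdkn1c*. It was 0.14 among 1560 genes near *Cdkn2a*, against 0.23, and 0.03 among 1116 genes near *Cdkn2b*, against 0.16. In H4 these medians were 0.01 to 0.02. The part of the array's shift in the 3 values was not tested. *Cdkn2c* lay below both references, at -0.47 in H3 and -0.26 in H4 where genes of like mean had medians of -0.08 and 0.005.

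**Figure D3:**
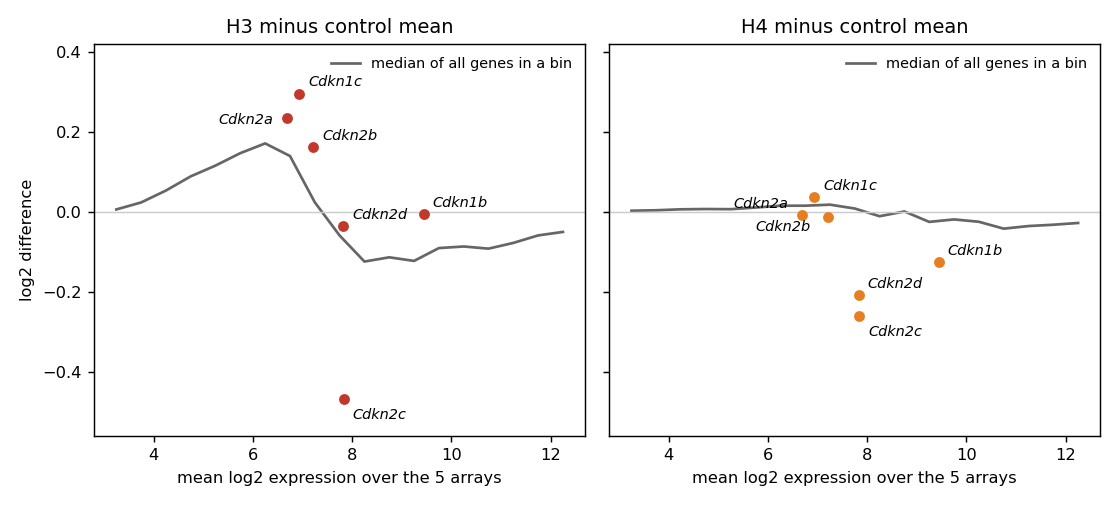
Log2 difference from the control mean (vertical axis) against mean log2 expression over the 5 arrays (horizontal axis) for H3 (left) and H4 (right). The grey line is the median over all genes in bins of mean expression, and circles are the 6 inhibitors. In H3 the line is above 0 at low levels and below 0 at high levels, *Cdkn1c* (0.30) and *Cdkn2a* (0.23) stand above it and *Cdkn2c* (-0.47) far below, while in H4 the line stays close to 0.

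Among the controls, *Cdkn1b* and *Cdkn2c* were also higher in the selected lines than in untransduced cells, by 0.18 and 0.19, and *Cdkn1c*, *Cdkn2a* and *Cdkn2b* differed by 0.08, -0.02 and -0.001. These differences set 2 lines against 1 and have no test.

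Several kinases and cyclins that the inhibitors bind were lower in the knockdown lines. Of 12 measured partners 6 were lower at the unadjusted threshold and none higher, with a median log2 difference of -0.54, against 7.61% lower among all genes. *Cdk6*, encoding a kinase target of the Ink4 proteins, read 9.44 (H3) and 9.88 (H4) after knockdown and 10.55 (H5), 10.46 (scrambled) and 10.69 (untransduced) in the controls. Both knockdown lines were below every control line, with a log2 difference of -0.91 (standard error 0.15, adjusted p = 0.267 from limma). *Ccne2*, encoding cyclin E2, had -1.68, *Ccna2*, encoding cyclin A2, had -1.17 and *Ccnb2*, encoding a mitotic cyclin, had -0.96. The study reports *Ccne2* and *Ccnb2* as lower on the same arrays, so these values are not independent evidence. The other called partners were *Cdk1* (-0.77) and *Cdk2* (-0.74), encoding a kinase that Cip/Kip proteins block. *Cdk4*, encoding the other kinase target of the Ink4 proteins, and the D-type cyclin genes *Ccnd1*, *Ccnd2* and *Ccnd3* were measured and did not pass. Leaving out H5 or the untransduced line each brought the count of called partners down to 3.

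Of 13 pocket proteins, E2F and DP genes, which act downstream of these kinases, 4 were lower and none was higher, with a median of -0.27, against the same 7.61%. They were *E2f8* (-1.02) and *E2f7* (-0.93), both repressors of the family, *Rbl1*, encoding the pocket protein p107 (-0.78), and *E2f4* (-0.58).

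Parts of the ubiquitin ligases that degrade Cip/Kip proteins were lower as well. The list also holds *Pcna* and *Uhmk1*, which are not ligase parts but are counted with them here. Of 14 measured genes 9 were lower and 1 was higher, with a median of -0.30, where all genes had 7.61% and 4.34%. *Skp2*, the receptor that brings phosphorylated p27Kip1 to the SCF ligase, read 8.94 (H3) and 8.29 (H4) after knockdown and 9.33 (H5), 9.07 (scrambled) and 9.54 (untransduced) in the controls. H3 came within 0.13 of the scrambled control, and the log2 difference was -0.70 (standard error 0.25, unadjusted p = 0.0405 from limma). *Cks1b*, which helps SKP2 bind p27Kip1, had -0.69, *Dtl*, the receptor for the p21Cip1 protein on CUL4 ligases, -0.94, and *Cdc20*, an activator of the anaphase-promoting complex, -0.93. The study reports *Cdc20* too as lower on the same arrays, so its value is not independent evidence. The 1 higher gene was *Uhmk1* (0.17), a kinase that phosphorylates p27Kip1.

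Most genes that control transcription of the inhibitors did not pass the test. Of 19 measured activators 4 were lower, 2 were higher and 13 did not pass, with a median of 0.06, where 7.61% of all genes were lower and 4.34% higher. *Foxo3*, which activates *Cdkn1b* in resting cells, read 8.96 (H3) and 8.92 (H4) after knockdown and 8.48 (H5), 8.49 (scrambled) and 8.20 (untransduced) in the controls. The cohorts did not overlap, and the log2 difference was 0.55 (standard error 0.11, adjusted p = 0.285 from limma). *Kmt2a*, a histone methyltransferase, had 0.27, and *Sp1* and *Dmtf1*, an activator of the Arf start site, had -0.24 each. The other called activators were *Men1* (-0.20), which acts with KMT2A on *Cdkn1b* and *Cdkn2c*, and *Klf6* (-0.18). The 6 called activators were 3 with a trend and robust fit, 2 with array weights, 2 after another quantile normalization and 2 without H5.

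Of 14 measured repressors 1 was lower, 2 were higher and 11 did not pass, with a median of -0.02. Among all genes 7.61% were lower and 4.34% higher, and counts this small are not a result about the repressors as a group. *Ezh2*, the methyltransferase of the Polycomb complex that silences the *Cdkn2a* locus, had a log2 difference of -0.36, *Cbx7*, another Polycomb protein, 0.25, and *Myc*, which represses *Cdkn2b* and *Cdkn1a*, 0.35. None of these 3 was called with the unmoderated test, with array weights or without H5.

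The p53 pathway was followed through targets other than *Cdkn1a*. Of 25 measured targets 13 were higher and 1 was lower at the unadjusted threshold, with a median of 0.33, against 4.34% and 7.61% of all genes. *Sesn2*, a stress-induced inhibitor of mTORC1 signalling, read 9.19 (H3) and 8.996 (H4) after knockdown and 8.06 (H5), 8.001 (scrambled) and 8.23 (untransduced) in the controls. Both knockdown lines lay well above the controls, with a log2 difference of 1.00 (standard error 0.10, adjusted p = 0.173 from limma). *Btg2*, an antiproliferative gene, had 1.47, *Zmat3*, encoding a zinc finger protein, 1.07 and *Trp53inp1*, encoding a p53-induced nuclear protein, 1.05, and since the study lists all 4 for the same arrays they are not independent evidence. The 1 lower target was *Rrm2b* (-0.34), a subunit of ribonucleotide reductase. The count of 14 was 9 with array weights.

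**Figure D4:**
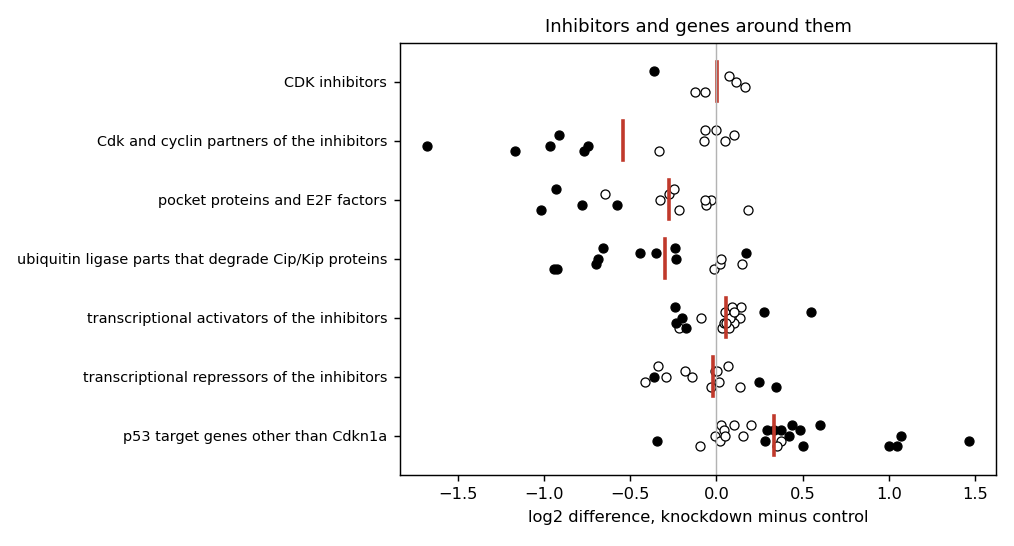
Log2 difference (horizontal axis), knockdown minus control, of the 6 inhibitors and of each measured gene in 6 lists (rows); filled circles passed an unadjusted p under 0.05 from limma, open circles did not, and the red bars are medians. The inhibitors lie close to 0 apart from *Cdkn2c* (-0.36), the bars of the partner, E2F and ligase lists lie to the left of 0, and that of the p53 targets (0.33) to the right.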

How the data were processed

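Expression was measured in 5 lines of 6DT1 cells on Affymetrix Mouse Gene 1.0 ST arrays, 1 array per line. RMA in Partek Genomics Suite was the authors' normalization (tools from the methods and the submitters' processing notes; versions not given in the sources used here), and the deposited values are log2 expression for 35556 probe sets. RMA removes differences between arrays on the assumption that most genes are alike, and RMA values understate large changes of dim genes. Of the probe sets, 21789 had 1 symbol in the platform annotation, 1621 had several and 12146 were unnamed here. For each of 19938 genes the brightest probe set by its mean over the arrays was taken, and symbols were updated by gene ID through RefSeq (21698 of 21789 matched).

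The cohorts, taken from the labels' Arid4b level, were fitted over all genes with lmFit and eBayes (limma 3.58.1, R 4.3.3; 1.58 prior and 3 residual degrees of freedom), with Benjamini-Hochberg adjustment, and 95% intervals use the moderated standard error. With 1 array per line, the p-values reflect how far lines differ, in part perhaps for technical reasons, and precision is limited by having 5 arrays. The fit was checked on simulated data in which a gene has the same spread on every array. These data do not hold the level-dependent shift of the H3 array, so the check does not cover it. The inhibitors and the gene lists were chosen with earlier results of these data known, and the lists were only counted, with no set test. The text names all inhibitors, up to 4 called genes of each list with the largest difference, the 2 measured genes on each side of an inhibitor and the 3 genes most like any inhibitor with an SD of at least 0.2. *Csf1r* (0.20) was the 1 called leukocyte marker, and none of the 10 epithelial or the 10 fibroblast and endothelial markers was called. Promoter windows are RefSeq sequence of GRCm38.p6. No column of another sample was present. Results were recomputed without each line, with array weights, with trend and robust options, with a plain equal-variance test (called unmoderated), on averaged probe sets, after removing the lowest 1 in 3 genes, after a further quantile normalization and after centring each array on its median. Genes outside this rule, named because few were called, were *Cdk1*, *Cdk2*, *Uhmk1*, *Men1*, *Klf6* and *Rrm2b*. *Cdk4*, the D-type cyclin genes and *Pcna* were named to describe their lists. The epithelial markers, *Ptprc*, *Pecam1* and the markers of other cell types above the olfactory receptor level were named to check the cell type. *Ccnb1*, *Trp53*, *Bax* and *Gdf15* were among the listed genes not analysed here. Figures were drawn with matplotlib 3.10.9.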

Additional observations from a re-analysis of the deposited data

How the results depend on the processing

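Of 72 values of the 6 inhibitors under 12 alternative settings, 60 kept their direction and their side of the unadjusted threshold. *Cdkn2c* kept its direction in all 12 and passed the threshold in 6: it was at -0.36 with an unmoderated equal-variance test and -0.47 with array weights, neither of which passed, and ran from -0.47 to -0.26 with 1 line left out. *Cdkn1b* turned to 0.004 after another quantile normalization and ran from -0.13 to -0.01 with 1 line left out. *Cdkn1c* ran from 0.037 (without H3) to 0.30, *Cdkn2a* from -0.01 to 0.23, *Cdkn2b* from -0.01 to 0.16 and *Cdkn2d* from -0.21 to -0.03, the negative values of *Cdkn2a* (-0.009) and *Cdkn2b* (-0.012) being those without H3. The count of called inhibitors, 1 in the reported fit, was 0 with the unmoderated test and with array weights and 0 to 3 with 1 line left out, 3 being the count without H4. With a lone knockdown line the spread comes from the control lines alone. Called partners were 3 to 8 (6 reported), pocket proteins and E2Fs 3 to 5 (4), ligase parts 7 to 10 (10) and p53 targets 10 to 12 (14) with 1 line left out, and p53 targets 9 with array weights. Called activators (6) were 3 with trend and robust options, 2 with array weights, 2 after another quantile normalization and 2 to 6 with 1 line left out. Called repressors (3) were 0 with the unmoderated test, 0 with array weights and 0 to 4 with 1 line left out. Called epithelial markers (0) were 1 with array medians subtracted and 0 to 5 with 1 line left out, called leukocyte markers (1) were 0 with the lowest 1 in 3 genes left out and 0 to 5, and called fibroblast and endothelial markers (0) were 0 to 6. The cause of these changes was not tested. *Arid4b* kept its direction and side in all 12 settings. Over all genes 1184 to 6887 passed the unadjusted threshold with 1 line left out, 1421 with the unmoderated test and 1287 with array weights, against 2383, and without H4 1266 genes passed the adjusted one. No paired analysis was possible because the labels pair no knockdown line with a control line.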
